A study of Mus musculus with 6 samples.

Results

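Arnt2 and 6 genes that share its protein family or work with it (Arnt, Hif1a, Ahr, Clock, Per1 and Per2) were followed across the 6 arrays of a study of Foxo1 in regulatory T cells (Treg cells). The members were the 22 probe sets annotated to these 7 genes alone, out of 45101 probe sets on the array: 3 for Arnt2, 5 for Arnt, 4 for Hif1a, 2 for Ahr, 4 for Clock, 1 for Per1 and 3 for Per2. Arnt2 was chosen by its difference between Foxo1KO and WT, so that difference is given as a description, with no p, for all 7 genes; the count of members called in it is printed once, beside its background, and nothing is read from it. The study asked which genes differ when the forkhead transcription factor Foxo1 is missing from Treg cells, and whether a constitutively active form of Foxo1 restores them.

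The Treg cells were sorted from C57BL/6 mice. There were 2 arrays of wild-type cells (WT), 2 of Foxo1 knockout cells (Foxo1KO), 1 of cells from mice with constitutively active Foxo1 (Foxo1AAA), and 1 of Foxo1 knockout cells that also carried it (Foxo1KO/Foxo1AAA). Which cells lost Foxo1, which part of the gene was removed, what drove the Foxo1AAA transgene, the sorting gates and the ages of the mice are not stated in the labels. Whether replicate arrays came from separate mice is not stated either; the 2 arrays of WT, and those of Foxo1KO, differed in Y-linked signal (given with the array facts), so they did not hold RNA of the same animals alone. The p-values reflect array-to-array spread. All levels are deposited log2 values after robust multi-array averaging (RMA), on which 1 unit is a doubling of signal. Levels are not compared between probe sets, because each hybridises differently. A probe set or gene was called at a limma p, adjusted by the Benjamini-Hochberg method over 45037 probe sets, under 0.05.

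The bHLH-PAS proteins bind DNA in pairs through a basic helix-loop-helix, and their PAS domains help to choose the partner. Sensor subunits pair with a general partner, Arnt or the related Arnt2: Hif1a and Epas1 are stabilised when oxygen is low, and Ahr binds aromatic ligands. Clock pairs with Arntl in the circadian clock, and the PAS proteins Per1 and Per2 repress that pair. In T cells, Hif1a is known for driving glycolysis and for its part in the choice between Th17 and Treg fates, and Ahr for its part in Treg cells of the gut. Arnt2 is best known from the brain.

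A few facts of the arrays touch these genes. Signal at genes that T cells do not use was gauged from 44 olfactory receptor probe sets, with a median of 4.97 and a 95th percentile of 6.31. At 1416982_at, Foxo1 itself measured 9.60 and 9.93 in WT, 9.27 and 9.18 in Foxo1KO, 9.39 in Foxo1AAA and 8.46 in Foxo1KO/Foxo1AAA. It differed by -0.54 between Foxo1KO and WT there (limma adjusted p = 0.023), by -0.49 at 1416981_at (adjusted p = 0.034) and by -0.43 at 1416983_s_at (adjusted p = 0.069). Where these probes lie relative to the deleted part is not stated, so they check the labels only in part. The Treg genes Il2ra and Ikzf2 were bright on all 6 arrays (11.15 to 11.48 and 13.26 to 13.63), whereas the only Foxp3 probe set measured 5.10 to 5.58, within the olfactory receptor range. Of 13 myeloid markers, 12 were called higher in Foxo1AAA than in WT (10.4% of all probe sets) and 10 in Foxo1KO/Foxo1AAA than in Foxo1KO (14.4% of all). Their summed level was 10.67 and 11.03 in WT, 11.69 and 11.06 in Foxo1KO, 13.89 in Foxo1AAA and 14.10 in Foxo1KO/Foxo1AAA. The sum of 9 dendritic cell markers was 10.19 and 10.49, 11.89 and 10.96, 13.13 and 13.27 on the same arrays, and that of 11 B and plasma cell markers was 13.32 and 13.42, 13.44 and 13.21, 14.25 and 14.07. H2-Aa, the brightest dendritic marker on every array, weighs most in the dendritic sum. Ighm and Xbp1, the brightest B and plasma cell markers on every array, weigh most in the B and plasma cell sum. In Foxo1AAA against WT, 7 dendritic markers were called higher and 1, Zbtb46, lower (-0.88). Zbtb46 was also lower in Foxo1KO/Foxo1AAA than in WT (-0.68). In Foxo1KO against WT, 3 myeloid markers were called higher and 0 lower (Lyz1 by 1.31, Lyz2 by 0.92 and Cd68 by at least 0.55), as were 3 dendritic markers higher and 0 lower (H2-Aa by 1.61, H2-Eb1 by 1.18 and Cd74 by 1.08). Of the 11 B and plasma cell markers, 4 were called higher and 1, Ighm, lower (-0.67). As the mean of all its probe sets, Ighm was instead higher by 0.84. Of all probe sets, 5.42% were called higher and 8.39% lower in Foxo1KO against WT. The calls of Cd68 and H2-Eb1 were lost without WT replicate 1 (adjusted p = 0.164 and 0.079) and without Foxo1KO replicate 1 (adjusted p = 0.165 and 0.125), and that of Cd68 also without Foxo1KO replicate 2 (adjusted p = 0.126). Those of H2-Aa and H2-Eb1 were lost with a robust variance prior (adjusted p = 0.159 and 0.086). On the WT and Foxo1KO arrays, Cd14 and Itgam (myeloid), Itgax, Xcr1 and Siglech (dendritic), and Cd79a and Blnk (B cell) lay within the olfactory receptor range. Xist measured 12.03 to 13.43 on the WT and Foxo1KO arrays, 6.04 in Foxo1AAA and 6.27 in Foxo1KO/Foxo1AAA, and the Y-linked Eif2s3y measured 3.91 and 4.05 on the arrays of replicate 1 and 9.91 to 10.59 on the remaining 4. Replicate 2 of WT and of Foxo1KO thus held both high Xist and Y-linked signal. The low Xist level and the presence of Foxo1AAA cannot be told apart. The part of other cells and of sex in the differences between groups, Foxo1KO against WT included, was not tested. In bulk RNA, fewer cells of a type and less RNA per cell cannot be told apart.

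**Figure D1:**
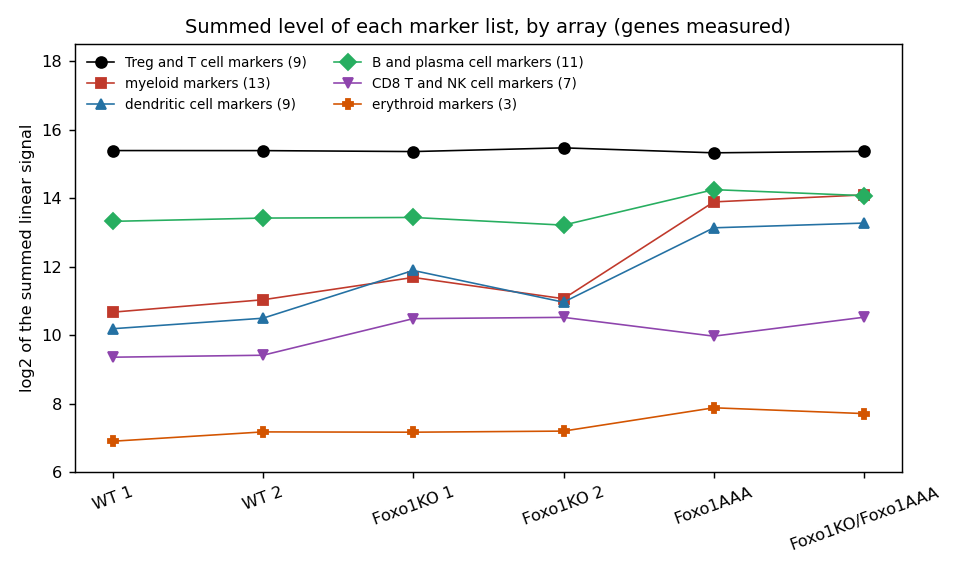
Summed linear signal of each marker list on a log2 axis, by array, with the number of genes measured in each list; lines join arrays only to guide the eye. Myeloid markers sit at 10.67 to 11.69 on the WT and Foxo1KO arrays and at 13.89 and 14.10 on the arrays with Foxo1AAA, whereas Treg and T cell markers stay within 15.32 to 15.47.

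The Arnt2 probe set that carries the difference, 1434028_at, measured 6.50 and 5.78 on the WT arrays, 10.37 and 10.56 on the Foxo1KO arrays, 7.0 on the Foxo1AAA array and 7.67 on the Foxo1KO/Foxo1AAA array. Both Foxo1KO arrays stood far above all the others, and WT and Foxo1KO did not overlap. The WT mean was 6.14 ± 0.51 (SD, n = 2) and the Foxo1KO mean 10.47 ± 0.14 (SD, n = 2), a log2 difference of 4.33. The WT mean lay below the 95th percentile of the olfactory receptor probe sets and only 1 of the 2 WT arrays exceeded it, so Arnt2 was at least 20.1-fold higher in Foxo1KO. The gap of 0.71 between the WT arrays, near the edge of detection, exceeded the gap of 0.19 between the Foxo1KO arrays.

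The remaining 2 Arnt2 probe sets did not show this difference. Probe set 1420670_at measured 5.68 and 5.73 in WT, 5.63 and 5.79 in Foxo1KO, 5.76 in Foxo1AAA and 5.67 in Foxo1KO/Foxo1AAA. Probe set 1420669_at measured 5.36 and 5.62 in WT, 5.57 and 5.61 in Foxo1KO, 4.73 in Foxo1AAA and 5.19 in Foxo1KO/Foxo1AAA. Both lay within the olfactory receptor range on every array, and their Pearson correlations with 1434028_at over the 6 arrays were -0.03 and 0.35. Every statement on Arnt2 therefore rests on a single probe set, and why the 3 disagree was not tested.

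**Figure D2:**
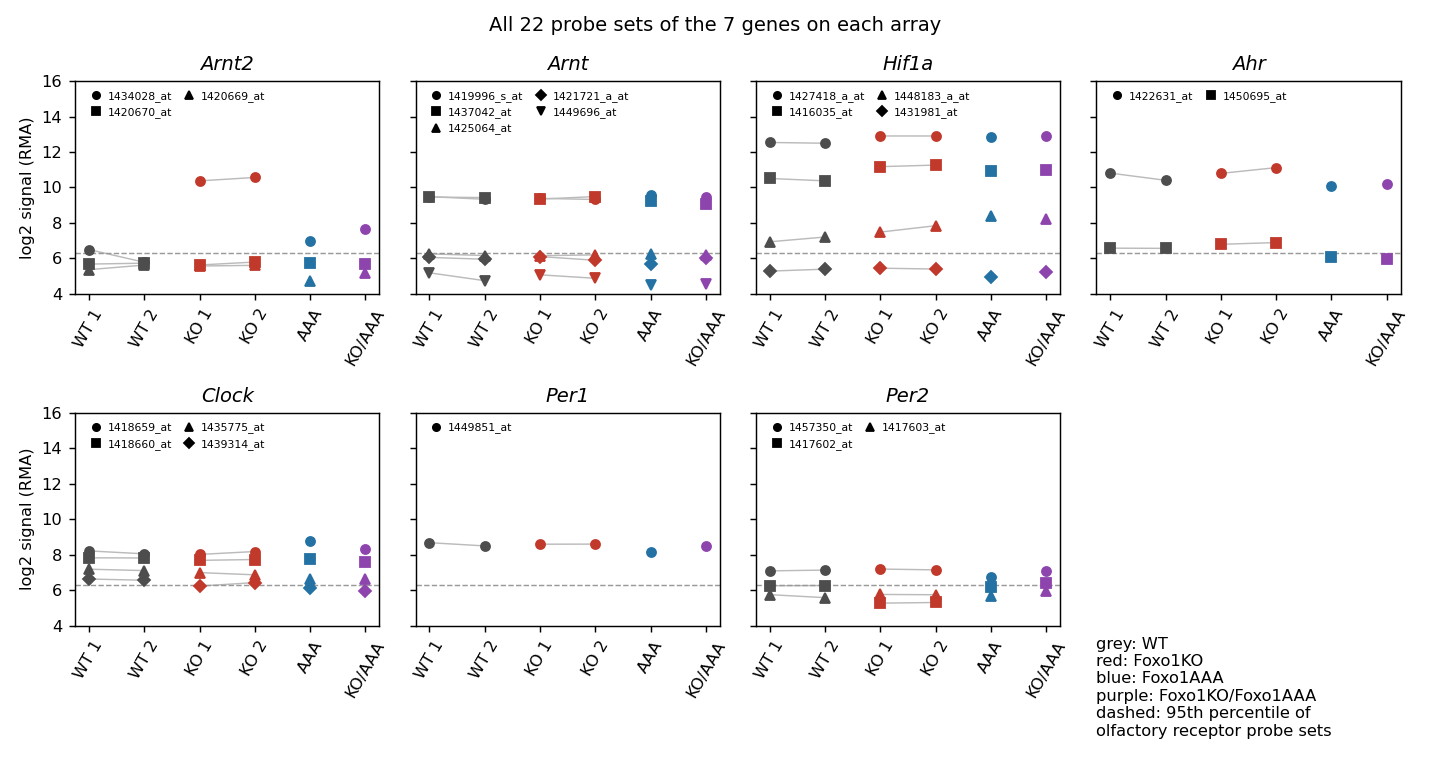
Log2 signal of all 22 probe sets of the 7 genes on each array, with a panel for each gene, a marker shape for each probe set and a colour for each group. Grey lines join the 2 arrays of a group, and the dashed line is at 6.31, the 95th percentile of olfactory receptor probe sets. Arnt2 1434028_at stands at 10.37 and 10.56 on the Foxo1KO arrays and at 5.78 to 7.67 elsewhere.

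The bases just before the start of Arnt2 are shown because it had the greatest range of the members. Those of Hif1a are shown because it was higher in Foxo1KO than in WT at each of its probe sets above background. Both are the 250 bases before the annotated start in RefSeq, build GRCm38.p6, written 5′ to 3′ in the direction of the gene: chr7:84410039-84410288 on the minus strand for Arnt2 and chr12:73907617-73907866 on the plus strand for Hif1a. Capitals mark matches to the searched motifs.
Arnt2: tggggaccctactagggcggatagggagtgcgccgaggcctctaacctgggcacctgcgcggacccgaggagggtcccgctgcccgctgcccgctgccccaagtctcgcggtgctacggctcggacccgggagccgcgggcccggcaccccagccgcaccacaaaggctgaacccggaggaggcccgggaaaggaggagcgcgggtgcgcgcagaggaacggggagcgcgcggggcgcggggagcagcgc
Hif1a: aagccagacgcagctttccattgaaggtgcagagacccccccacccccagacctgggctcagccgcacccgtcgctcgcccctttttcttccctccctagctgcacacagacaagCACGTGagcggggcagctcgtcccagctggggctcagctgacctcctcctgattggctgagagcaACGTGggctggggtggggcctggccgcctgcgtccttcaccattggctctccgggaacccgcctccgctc
Both strands were searched for GTAAACA, a forkhead motif of the kind Foxo proteins bind, ACGTG (HIF), GCGTG (Ahr with Arnt) and the E-box CACGTG (Clock with Arntl), which overlaps ACGTG. The Arnt2 sequence held none of the 4 and had a GC content of 75.6%, against a median of 52.4% over 32851 promoters. The Hif1a sequence held the E-box 135 bases before the start, which also counts as ACGTG on each strand, and a further ACGTG 70 bases before it. Of all promoters, 3.2% held GTAAACA, 16.6% ACGTG, 28.2% GCGTG and 6.0% CACGTG. Promoters were listed for 5 of the 7 genes, and none of those held GTAAACA. The search covers these letters in these windows and says nothing of binding.

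With Foxo1AAA present, Arnt2 was far lower. Foxo1KO/Foxo1AAA lay 2.80 below the Foxo1KO mean on the log2 scale, a 6.95-fold difference. Since the WT level was not above background, this equalled at most 64.6% of the log2 knockout difference, and Foxo1KO/Foxo1AAA lay at least 1.53 above WT. Foxo1AAA, low Xist and a high myeloid sum go together on that array and cannot be told apart. Foxo1AAA with the endogenous gene present was at least 0.86 above the WT mean, close to the gap between the WT arrays. These values share arrays with the contrast that chose Arnt2 and carry no test. Foxo1KO/Foxo1AAA against Foxo1AAA uses other arrays, 1 on each side, and gave a log2 difference of 0.67 (SE 0.29, 95% interval 0.02 to 1.32, limma adjusted p = 0.361). It did not pass the threshold. The knockout difference with Foxo1AAA minus that without it was -3.66. Arnt2 was highest on the Foxo1KO arrays, where the myeloid sums were 11.69 and 11.06, and not on the arrays with Foxo1AAA, where they were highest. Between the 2 Foxo1KO arrays Arnt2 differed by 0.19, less than the 0.71 between the WT arrays, so their marker sums are not set against it. The part of myeloid and dendritic cells in the Arnt2 level was not tested.

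Markers of CD8 T and NK cells were mixed, and some of them were high on the same arrays as Arnt2. Of the 7 measured, 4 were called higher in Foxo1KO than in WT and none lower, where 5.42% of all probe sets were called higher and 8.39% lower. Their median log2 difference was 0.66 against 0.01 over all probe sets. Klrc1, an inhibitory receptor chain of NK cells, rose by at least 4.04, from WT levels within the olfactory receptor range, and Eomes, a T-box factor of cytotoxic cells, rose by 2.25. Eomes measured 6.59 and 6.47 in WT, 8.81 and 8.74 in Foxo1KO, 6.79 in Foxo1AAA and 7.58 in Foxo1KO/Foxo1AAA, the same order of groups as Arnt2. The other 2 called markers did not follow that order. Klrd1 measured 5.16 and 5.60 in WT, 6.80 and 6.43 in Foxo1KO, 8.08 in Foxo1AAA and 8.56 in Foxo1KO/Foxo1AAA. It was highest on the arrays with Foxo1AAA, where Arnt2 was below its Foxo1KO level. Klrk1 measured 5.87 and 5.82 in WT, 6.62 and 6.39 in Foxo1KO, 5.85 in Foxo1AAA and 6.91 in Foxo1KO/Foxo1AAA. Cd8b1 was also highest on the arrays with Foxo1AAA (8.28 and 8.69, against 7.57 to 7.78 elsewhere), whereas Cd8a was lowest there (7.14 and 7.37). In Foxo1KO against WT, Cd8a and Cd8b1 were higher by 0.19 and 0.18 without passing the test (limma adjusted p = 0.401 and 0.308), and Ncr1 lay within the olfactory receptor range. The summed level of the list was 9.36 and 9.41 in WT, 10.48 and 10.52 in Foxo1KO, 9.97 in Foxo1AAA and 10.52 in Foxo1KO/Foxo1AAA. Among B and plasma cell markers, 4 were called higher in Foxo1KO than in WT, 1 (Ighm) was called lower and 6 were not called. Jchain had the largest rise, by at least 3.22. It was highest in Foxo1AAA (10.72) and Foxo1KO/Foxo1AAA (10.40), where Arnt2 was below its Foxo1KO level. The part of these cells in the Arnt2 level was not tested.

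The 5 genes whose levels followed Arnt2 most closely were taken from 417 genes with a range of at least 2 log2 units, by Pearson correlation with 1434028_at over the 6 arrays. They were Myl4, a myosin light chain (r = 0.995), Hip1, an endocytic adaptor (r = 0.995), Slamf7, a receptor of lymphocytes (r = 0.995), Rai14 (r = 0.994) and Ell2, an elongation factor (r = 0.994). Slamf7 measured 6.97 and 6.74 in WT, 8.55 and 8.81 in Foxo1KO, 7.19 in Foxo1AAA and 7.65 in Foxo1KO/Foxo1AAA. Rai14 measured 5.43 and 5.15 in WT, 8.26 and 8.09 in Foxo1KO, 5.67 in Foxo1AAA and 6.40 in Foxo1KO/Foxo1AAA. All 5 were highest in Foxo1KO and lowest in WT like Arnt2, over a smaller range. The arrays share 4 groups and the genes were picked for likeness, so the correlations are descriptions.

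**Figure D3:**
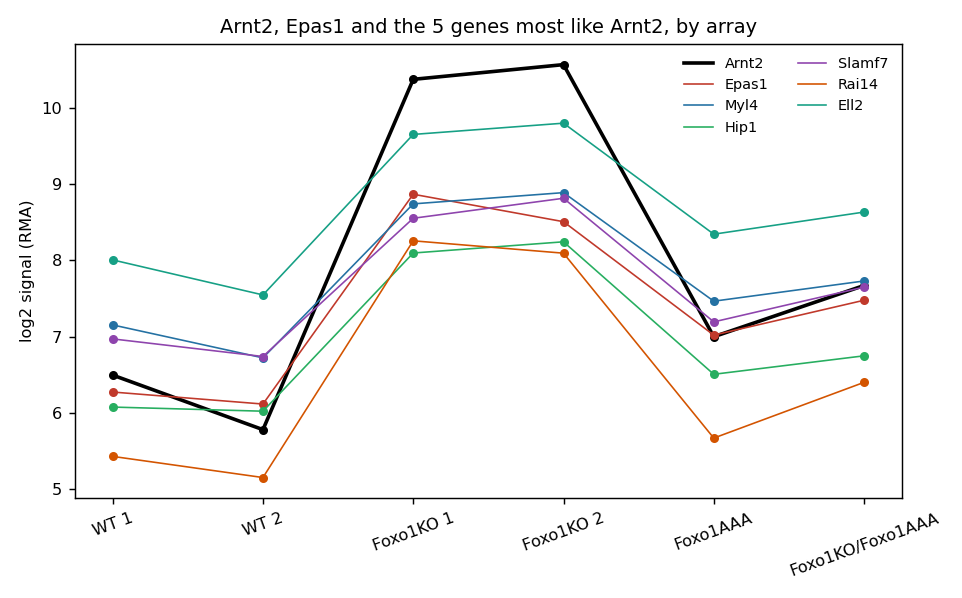
Log2 signal by array of Arnt2 (1434028_at, thick black line), Epas1 (1435436_at) and the 5 genes most correlated with Arnt2; lines join arrays only to guide the eye. All 7 genes peak on the Foxo1KO arrays, and Arnt2 has the widest range, from 5.78 to 10.56.

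Over the 22 member probe sets, 5 were called in Foxo1KO against WT, 4 higher and 1 lower, where 13.8% of all probe sets were called (5.42% higher, 8.39% lower). Nothing is read from that count, since the contrast chose Arnt2. It was lower leaving out each replicate in turn, and without either Foxo1KO array fewer of all probe sets were called as well. The 2 groups did not overlap at 11 of the 22, where 52.8% of all probe sets did not overlap, and the median difference was 0.01 for the members and for all probe sets. In Foxo1KO/Foxo1AAA against Foxo1KO, 5 were called, 2 higher and 3 lower, against 30.7% of all (14.4% higher, 16.3% lower). In Foxo1AAA against WT, 9 were called, 4 higher and 5 lower, against 23.7% of all (10.4% higher, 13.3% lower). Fewer members were called leaving out each replicate in turn, and without WT replicate 2 fewer of all probe sets were called as well. In Foxo1KO/Foxo1AAA against WT, 6 were called, 3 higher and 3 lower, against 24.5% of all (11.7% higher, 12.8% lower). In Foxo1KO/Foxo1AAA against Foxo1AAA, limma called 0, with 3 at an unadjusted p under 0.05, against 27 of all probe sets called (0.06%) and 6037 at an unadjusted p under 0.05. The knockout difference itself differed with and without Foxo1AAA at 2 member probe sets (Arnt2 1434028_at and Per2 1417602_at), against 3.04% of all. Without either Foxo1KO array in turn, fewer members and fewer of all probe sets were called. The contrast of the 2 knockout differences contains the Foxo1KO and WT values that chose Arnt2, so nothing is read from its count.

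Arnt, the general partner that Arnt2 resembles, was nearly flat. Its brightest probe set, 1419996_s_at, measured 9.48 and 9.33 in WT, 9.38 and 9.32 in Foxo1KO, 9.56 in Foxo1AAA and 9.44 in Foxo1KO/Foxo1AAA. Probe set 1437042_at measured 9.46 and 9.43 in WT, 9.34 and 9.49 in Foxo1KO, 9.26 in Foxo1AAA and 9.08 in Foxo1KO/Foxo1AAA. Foxo1KO minus WT ranged from -0.05 to 0.01 over the 5 probe sets, and each difference was smaller than the gap between replicate arrays of WT or of Foxo1KO. The dimmer 3 probe sets lay between 4.51 and 6.26, within the olfactory receptor range. No Arnt probe set was called in any of the 5 comparisons of groups; without WT replicate 2 the dimmest, 1449696_at, was called lower in Foxo1AAA than in WT by 0.67 and in Foxo1KO/Foxo1AAA than in WT by 0.63. The correlation of 1419996_s_at with Arnt2 over the 6 arrays was -0.41.

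Among the sensor subunits, Hif1a was higher in Foxo1KO at each of its 3 probe sets above background, by far less than Arnt2. Probe set 1427418_a_at measured 12.54 and 12.49 in WT, 12.90 and 12.90 in Foxo1KO, 12.87 in Foxo1AAA and 12.87 in Foxo1KO/Foxo1AAA. Probe set 1416035_at measured 10.51 and 10.37 in WT, 11.17 and 11.26 in Foxo1KO, 10.91 in Foxo1AAA and 10.96 in Foxo1KO/Foxo1AAA. Probe set 1448183_a_at measured 6.94 and 7.20 in WT, 7.48 and 7.84 in Foxo1KO, 8.38 in Foxo1AAA and 8.24 in Foxo1KO/Foxo1AAA. WT was lowest at all 3, and Foxo1KO minus WT was 0.39, 0.78 and 0.59, in that order. The fourth probe set, 1431981_at, stayed between 4.97 and 5.45.

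With Foxo1AAA, Hif1a was not back at the WT level. The comparisons in the rest of the text, other than Foxo1KO/Foxo1AAA against Foxo1AAA, share the WT or the Foxo1KO arrays with the contrast that chose Arnt2. Foxo1AAA exceeded WT at 1416035_at by 0.48 (limma adjusted p = 0.029) and at 1448183_a_at by 1.31 (adjusted p = 0.002), and at 1427418_a_at by 0.35 without passing the threshold (adjusted p = 0.061). Foxo1KO/Foxo1AAA exceeded WT by 0.52 at 1416035_at (adjusted p = 0.019) and by 1.17 at 1448183_a_at (adjusted p = 0.003). Without WT replicate 2, 1416035_at no longer passed in either comparison (0.41, adjusted p = 0.111, and 0.46, adjusted p = 0.080). Against Foxo1KO, Foxo1KO/Foxo1AAA differed by -0.25 at 1416035_at (adjusted p = 0.162), by -0.03 at 1427418_a_at, and by 0.57 at 1448183_a_at (adjusted p = 0.039), a call that was lost without Foxo1KO replicate 1 (0.39, adjusted p = 0.158). Between the 2 arrays with Foxo1AAA, the knockout difference of Hif1a lay between -0.14 and 0.27 over the 4 probe sets, and none was called. Unlike Arnt2, Hif1a at 1448183_a_at was highest on the arrays with Foxo1AAA, as were the myeloid sums; the part of myeloid cells was not tested.

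Ahr, the ligand-activated sensor, was lower on both arrays with Foxo1AAA than on the other 4. Its brighter probe set, 1422631_at, measured 10.81 and 10.40 in WT, 10.79 and 11.12 in Foxo1KO, 10.11 in Foxo1AAA and 10.19 in Foxo1KO/Foxo1AAA. Probe set 1450695_at measured 6.58 and 6.56 in WT, 6.79 and 6.89 in Foxo1KO, 6.10 in Foxo1AAA and 5.95 in Foxo1KO/Foxo1AAA. The 2 probe sets moved alike (r = 0.907 over the 6 arrays), with Foxo1KO minus WT at 0.35 and 0.27. The WT and Foxo1KO groups overlapped at 1422631_at.

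Foxo1KO/Foxo1AAA was lower than Foxo1KO by 0.76 at 1422631_at (limma adjusted p = 0.019) and by 0.89 at 1450695_at (adjusted p = 0.001). The first call was lost without Foxo1KO replicate 2 (-0.60, adjusted p = 0.095). Against WT, Foxo1KO/Foxo1AAA was lower at 1450695_at by 0.62 (adjusted p = 0.008). Foxo1AAA was lower than WT at 1450695_at by 0.47 (adjusted p = 0.026), a call that was lost without either WT array (adjusted p = 0.073 and 0.072), and differed by -0.50 at 1422631_at (adjusted p = 0.095), which was called without WT replicate 2 (-0.70, adjusted p = 0.032), as was Foxo1KO/Foxo1AAA against WT. The knockout difference between the 2 arrays with Foxo1AAA was 0.09 and -0.15, and neither was called. The levels at 1450695_at on those arrays were within the olfactory receptor range, so its differences from them are lower bounds.

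In the clock, Clock differed little between WT and Foxo1KO, and its probe sets disagreed on the arrays with Foxo1AAA. Probe set 1418659_at measured 8.21 and 8.05 in WT, 8.01 and 8.18 in Foxo1KO, 8.75 in Foxo1AAA and 8.34 in Foxo1KO/Foxo1AAA. Probe set 1435775_at measured 7.18 and 7.10 in WT, 6.99 and 6.86 in Foxo1KO, 6.61 in Foxo1AAA and 6.65 in Foxo1KO/Foxo1AAA. The first was highest in Foxo1AAA and the second lowest there, with a correlation between them of -0.75 over the 6 arrays. Probe set 1418660_at stayed between 7.61 and 7.82, and 1439314_at fell from 6.63 and 6.56 in WT to 6.11 in Foxo1AAA and 5.94 in Foxo1KO/Foxo1AAA.

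Foxo1AAA was above WT at 1418659_at by 0.62 (limma adjusted p = 0.014) and below it at 1435775_at by 0.53 (adjusted p = 0.019) and at 1439314_at by 0.49 (adjusted p = 0.031). Each of these calls was lost without 1 of the WT arrays, at adjusted p = 0.052 for 1418659_at without WT replicate 2, 0.063 for 1435775_at without WT replicate 1, and 0.091 and 0.062 for 1439314_at without either. Foxo1KO/Foxo1AAA was below WT by 0.49 at 1435775_at (adjusted p = 0.024, and 0.077 without WT replicate 1) and by 0.65 at 1439314_at (adjusted p = 0.010). The levels at 1439314_at on the arrays with Foxo1AAA were within the olfactory receptor range, so its differences from WT there are lower bounds. The mean over all Clock probe sets gave -0.11 for Foxo1AAA against WT, so no direction is given for the gene. Between the arrays with Foxo1AAA the largest Clock difference was -0.42, at 1418659_at (adjusted p = 0.297).

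Of the repressors of that pair, Per1 measured 8.68 and 8.49 in WT, 8.59 and 8.60 in Foxo1KO, 8.16 in Foxo1AAA and 8.50 in Foxo1KO/Foxo1AAA. Only the Foxo1AAA array stood apart, 0.43 below WT (limma adjusted p = 0.044), and the call was lost without any 1 of the WT and Foxo1KO arrays in turn (adjusted p from 0.0501 to 0.167). Foxo1KO/Foxo1AAA exceeded Foxo1AAA by 0.34 (95% interval -0.004 to 0.68, adjusted p = 0.379). At its brightest probe set, 1457350_at, Per2 measured 7.09 and 7.13 in WT, 7.19 and 7.14 in Foxo1KO, 6.75 in Foxo1AAA and 7.05 in Foxo1KO/Foxo1AAA. It was again lowest on the Foxo1AAA array, 0.36 below WT (adjusted p = 0.059).

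A second Per2 probe set, 1417602_at, was lower in Foxo1KO alone. It measured 6.25 and 6.26 in WT, 5.27 and 5.30 in Foxo1KO, 6.18 in Foxo1AAA and 6.40 in Foxo1KO/Foxo1AAA. Foxo1KO minus WT was -0.97 on the log2 scale, while replicate arrays differed by at most 0.04. Foxo1KO/Foxo1AAA was 1.12 above Foxo1KO (limma adjusted p = 0.000366). All these levels but 1 lay within the olfactory receptor range, so no fold is given and the differences may be understated. The third probe set, 1417603_at, was between 5.58 and 5.93 on every array, and the mean over all Per2 probe sets differed by -0.27 between Foxo1KO and WT.

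**Figure D4:**
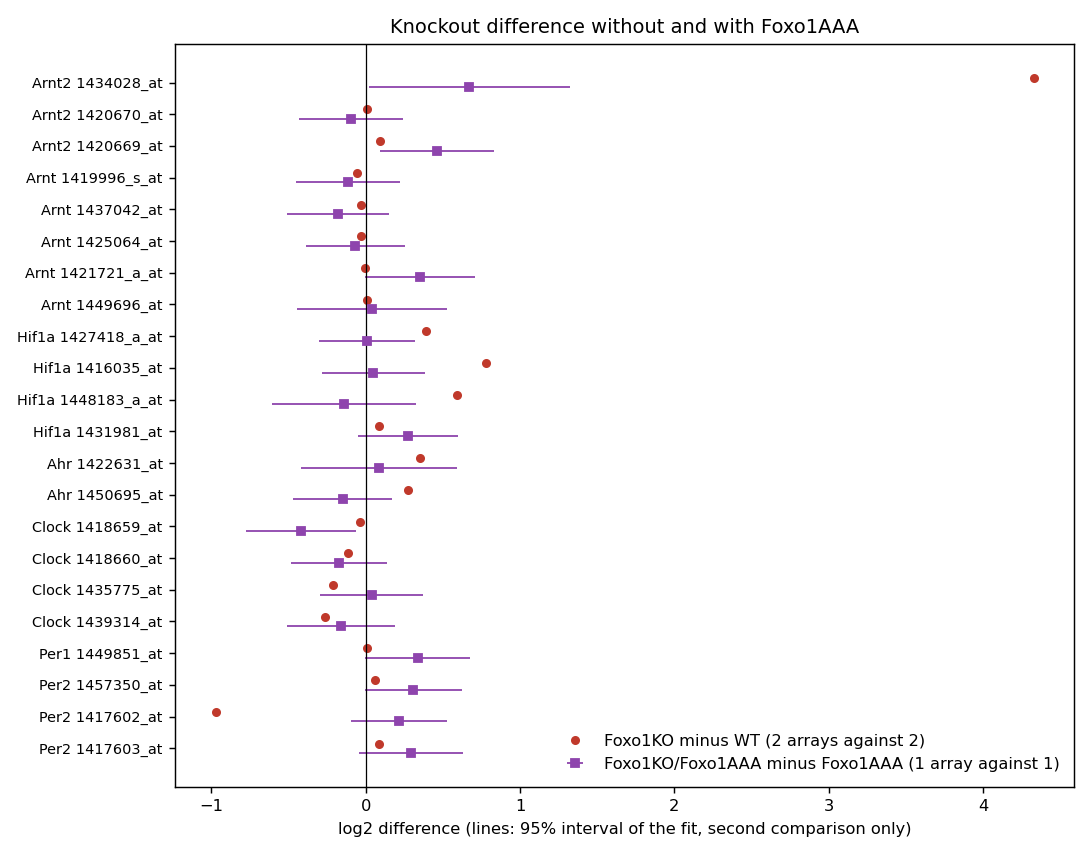
Log2 knockout difference of each of the 22 member probe sets without Foxo1AAA (circles, Foxo1KO minus WT, the contrast that chose Arnt2, shown without intervals) and with it (squares, Foxo1KO/Foxo1AAA minus Foxo1AAA, with the 95% interval of the fit). Arnt2 1434028_at is at 4.33 and 0.67 and Per2 1417602_at at -0.97 and 0.22, whereas both differences of every Arnt probe set lie between -0.18 and 0.35.

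Among 15 other bHLH-PAS genes, 1 rose and 1 fell in Foxo1KO, where 5.42% of all probe sets rose and 8.39% fell. Epas1, the endothelial oxygen sensor that also pairs with Arnt proteins, measured 6.27 and 6.12 in WT, 8.87 and 8.51 in Foxo1KO, 7.02 in Foxo1AAA and 7.48 in Foxo1KO/Foxo1AAA at 1435436_at. It rose by 2.49 in Foxo1KO, at least 5.62-fold since WT was within the olfactory receptor range (limma adjusted p = 1.63e-05), and Foxo1KO/Foxo1AAA was 1.21 below Foxo1KO (adjusted p = 0.001). Its order of groups was that of Arnt2 (r = 0.976 over the 6 arrays, a value that 19 of the 417 genes reached). Its second probe set, 1449888_at, differed by 0.29 (adjusted p = 0.097). Npas4, an activity-induced factor, fell by 1.09 in Foxo1KO at levels within the olfactory receptor range.

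Adding Foxo1AAA to the knockout (Foxo1KO/Foxo1AAA against Foxo1KO) gave 0 of the 15 called higher in limma (0 at an unadjusted p under 0.05) and 4 lower. Of all probe sets, 14.4% were called higher and 16.3% lower there, and the median was -0.24 for the 15 against -0.06 for all. Besides Epas1, the genes called lower were Hif3a (-0.53), Arntl2 (-0.50) and Arntl (-0.46), the partner of Clock. Each of the latter 3 calls was lost without a single Foxo1KO array (adjusted p = 0.104 for Hif3a without replicate 2, 0.079 for Arntl2 without replicate 1, and 0.056 and 0.062 for Arntl). Against WT, 1 was higher and 4 lower both in Foxo1AAA (10.4% and 13.3% of all probe sets) and in Foxo1KO/Foxo1AAA (11.7% and 12.8%). Arntl measured 9.47 and 9.49 in WT, 9.35 and 9.39 in Foxo1KO, 8.78 in Foxo1AAA and 8.91 in Foxo1KO/Foxo1AAA, lower on the arrays with Foxo1AAA by 0.70 and 0.57 than WT (adjusted p = 0.005 and 0.011). Npas2, which can replace Clock, and Ahrr, the repressor of Ahr, lay within the olfactory receptor range on every array.

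Of 18 clock genes measured, 4 rose and 2 fell in Foxo1KO, with a median of -0.06 against 0.01 over all probe sets, of which 5.42% rose and 8.39% fell. The output gene Dbp fell by 1.26 (limma adjusted p = 0.001) and the repressor Cry2 by 0.57 (adjusted p = 0.006), while Nfil3, which opposes Dbp, rose by 0.80 (adjusted p = 0.001). Bhlhe40, a repressor of Clock with Arntl, rose by 0.94 and the receptor Rora by 0.61, and both calls were lost without Foxo1KO replicate 2 (adjusted p = 0.082 and 0.097). Unlike Cry2, the core genes Arntl and Cry1 were not called (-0.11 and -0.27). Npas2 and Nr1d1 differed by -0.06 and -0.01 and were not called either. Both lay within the olfactory receptor range on every array, so their differences may be understated. Against Foxo1KO, 14.4% of all probe sets were higher and 16.3% lower in Foxo1KO/Foxo1AAA. Of the clock genes, 2 were higher there (Nfil3 by 0.99 and Dbp by 0.68) and 7 lower, led by Rora (-1.59) and Cry1 (-0.77). Nfil3 thus rose with the knockout and again with Foxo1AAA, from 7.67 and 7.65 in WT to 8.46 and 8.46 in Foxo1KO, 9.36 in Foxo1AAA and 9.45 in Foxo1KO/Foxo1AAA. Against WT, 2 rose and 5 fell in Foxo1AAA (10.4% and 13.3% of all probe sets). In Foxo1KO/Foxo1AAA, 2 rose and 7 fell against WT (11.7% and 12.8% of all probe sets).

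HIF target genes, which carry the output of Hif1a or Epas1 paired with Arnt, moved in both directions. Of 28 measured, 12 rose and 2 fell in Foxo1KO, with a median of 0.18 against 0.01 over all probe sets, of which 5.42% rose and 8.39% fell. In a fit of genes rather than probe sets, without the lowest 25%, 21.8% of all genes were called in this contrast, so counts of genes and shares of probe sets are not on the same footing. The largest were Ndrg1, a stress-response gene (1.67, limma adjusted p = 3.12e-05), Ddit4, an inhibitor of mTORC1 (0.96), and the glycolytic enzyme Tpi1 (0.93), against P4ha1, a collagen prolyl hydroxylase (-1.31, adjusted p = 8.55e-05). The call of Ddit4 was lost without WT replicate 2 (adjusted p = 0.104) or Foxo1KO replicate 2 (adjusted p = 0.204). Ndrg1 measured 9.15 and 9.01 in WT, 10.71 and 10.79 in Foxo1KO, 8.43 in Foxo1AAA and 8.58 in Foxo1KO/Foxo1AAA, while P4ha1 measured 8.67 and 8.81, 7.39 and 7.46, 9.58 and 9.49 on the same arrays. These were mirror images, with Ndrg1 highest and P4ha1 lowest in Foxo1KO.

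With Foxo1AAA added to the knockout, 5 of the 28 HIF target genes rose and 5 fell against Foxo1KO. Of all probe sets, 14.4% rose and 16.3% fell in that comparison. P4ha1 rose by 2.06, Egln3, a prolyl hydroxylase that marks Hif1a for decay, by 1.22 and the glucose transporter Slc2a1 by 0.96, while Ndrg1 fell by 2.17. Against WT, 7 rose and 4 fell in Foxo1AAA (10.4% and 13.3% of all probe sets). In Foxo1KO/Foxo1AAA, 11 rose and 2 fell against WT (11.7% and 12.8% of all probe sets). Of the 11 HIF regulators, limma called 0 in Foxo1KO (1 at an unadjusted p under 0.05), where 13.8% of all probe sets were called. Egln3 differed by 0.06 and Vhl, the ubiquitin ligase subunit for Hif1a, by 0.09 (limma adjusted p = 0.779 and 0.651). Egln3 measured 8.43 and 8.34 in WT, 8.46 and 8.43 in Foxo1KO, 9.24 in Foxo1AAA and 9.66 in Foxo1KO/Foxo1AAA. It was high only on the arrays with Foxo1AAA, which also held high myeloid sums and low Xist, and these cannot be told apart.

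Of 10 AhR target genes measured, 3 rose and 1 fell in Foxo1KO, with a median of 0.10, where 5.42% of all probe sets rose and 8.39% fell. Entpd1, the ectoenzyme CD39 of Treg cells, rose by 1.09 (limma adjusted p = 0.000251), the cytokine Il10 by 0.99 (adjusted p = 0.002) and Nqo1, a quinone reductase, by at least 0.79 (adjusted p = 0.002), while Gpr15, a gut homing receptor, fell by 1.29 (adjusted p = 0.001). From Foxo1KO to Foxo1KO/Foxo1AAA, Il10 rose by 0.80, Nqo1 fell by 0.86 to within the olfactory receptor range, and Cyp1a1, the classical target, was called lower by 0.46 within the olfactory receptor range. The calls of Il10 and Cyp1a1 were lost without Foxo1KO replicate 1 (adjusted p = 0.065 and 0.145). Gpr15 measured 8.92 and 8.67 in WT, 7.77 and 7.25 in Foxo1KO, 6.78 in Foxo1AAA and 7.08 in Foxo1KO/Foxo1AAA, so it remained low with Foxo1AAA. Against WT, 2 rose and 1 fell in Foxo1AAA (10.4% and 13.3% of all probe sets). In Foxo1KO/Foxo1AAA, 2 rose and 2 fell against WT (11.7% and 12.8% of all probe sets). Of the AhR chaperones only Hsp90aa1 was measured, and it differed by 0.15 in Foxo1KO (adjusted p = 0.411).

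Per1 is also induced by glucocorticoids, so 10 genes of that response were followed. In Foxo1KO, 4 rose and 1 fell, where 5.42% of all probe sets rose and 8.39% fell. The kinase gene Sgk1 rose by 1.57 (limma adjusted p = 0.000477), the cell cycle inhibitor Cdkn1a by 1.25 (adjusted p = 8.95e-05), Ddit4 by 0.96 and the chaperone Fkbp5 by 0.83 (adjusted p = 0.001), while Klf9 fell by 0.44. Tsc22d3, a standard reporter of the response, differed by -0.88 without passing the test (adjusted p = 0.088). From Foxo1KO to Foxo1KO/Foxo1AAA, 2 rose and 4 fell, led by Tsc22d3 (1.78) and Sgk1 (-1.01, adjusted p = 0.009, and 0.059 without Foxo1KO replicate 2). Of all probe sets, 14.4% rose and 16.3% fell from Foxo1KO to Foxo1KO/Foxo1AAA. Against WT, limma called 0 in Foxo1AAA (0 at an unadjusted p under 0.05), where 10.4% of all probe sets rose and 13.3% fell. In Foxo1KO/Foxo1AAA against WT, 1 rose and 1 fell, where 11.7% of all probe sets rose and 12.8% fell. Between Foxo1KO/Foxo1AAA and Foxo1AAA, limma called 0 of the 85 genes of the 7 pathway lists, with 13 at an unadjusted p under 0.05. Of all probe sets, 0.06% were called there.

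**Figure D5:**
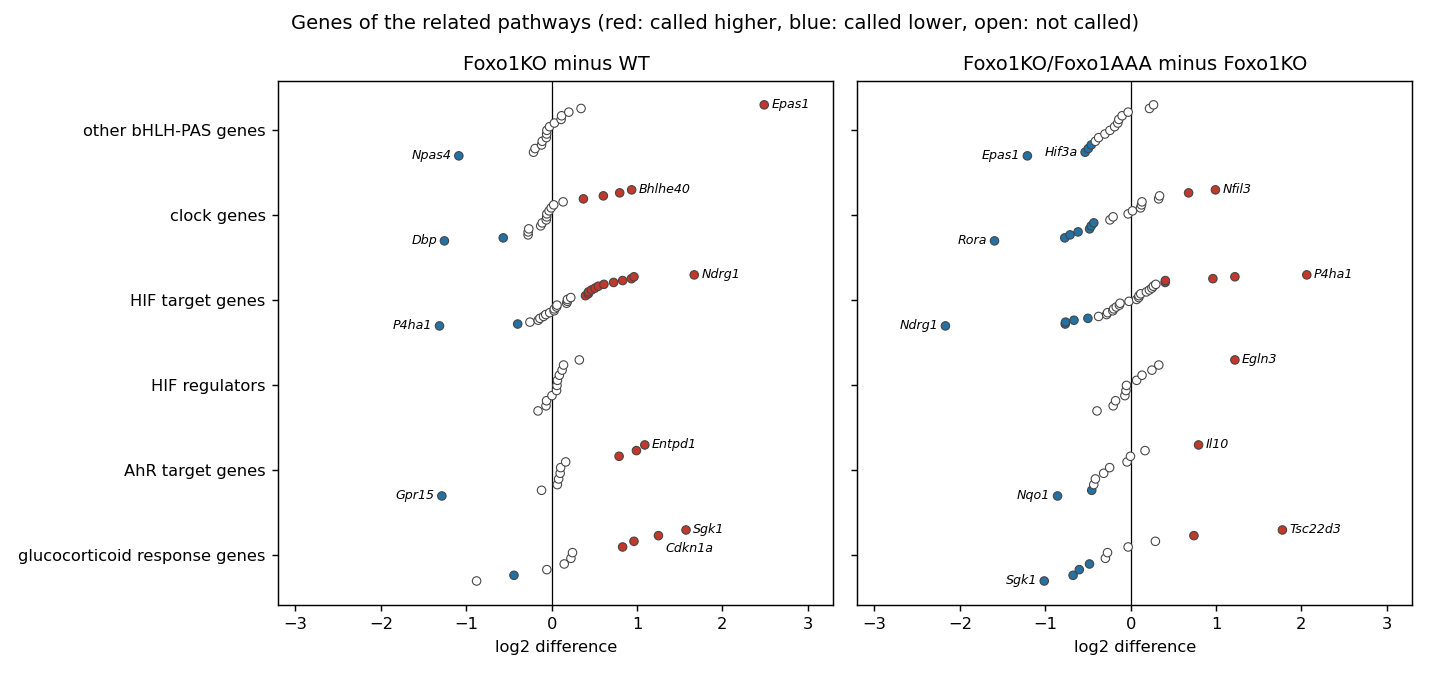
Log2 difference of each gene of 6 pathway lists in Foxo1KO against WT (left) and Foxo1KO/Foxo1AAA against Foxo1KO (right), 1 point per gene by its brightest probe set; points are spread vertically in order of their value, and the largest called genes are named. Epas1 is at 2.49 on the left and -1.21 on the right, and Ndrg1 and P4ha1 change sides between the panels (1.67 to -2.17 and -1.31 to 2.06).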

How the data were processed

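Total RNA of sorted Treg cells was hybridised as biotin-labelled cRNA to 6 Affymetrix arrays, per the labels' protocols. RMA (background correction, quantile normalization between arrays, summary per probe set) gave the deposited log2 values; the submitters' processing notes name R 2.15 and limma 3.12.1. Quantile normalization hides a shift shared by most transcripts, and array signal flattens near background and at saturation. The number of arrays limits the precision.

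The 45037 probe sets other than 64 controls entered a limma fit of the means of 4 groups (limma 3.58.1, R 4.3.3). Its spread rests on both replicate pairs (2 residual degrees of freedom, prior 6.62 with an SD of 0.11), and the single arrays were assumed to vary like them. Tests were two-sided with Benjamini-Hochberg adjustment over all probe sets; with 2 arrays a side, the smallest p of an exact permutation test is 0.333. The code was tested on simulated data. The platform annotation gave 1 gene for 34958 probe sets, several for 932 and none for 9211; 34754 matched RefSeq by Entrez identifier and no symbol changed.

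List genes were read at the probe set with the highest mean of 6 arrays. Of each list, at most the 4 largest called genes per comparison and named partners or repressors of the members could be named; the marker genes Klrc1, Eomes, Jchain, Cd8a, Cd8b1, Ncr1, Klrd1, Klrk1, Lyz1, Lyz2, Cd68, H2-Aa, H2-Eb1, Cd74, Il2ra and Ikzf2, and Tsc22d3 in Foxo1KO against WT, were named after their values were seen. Ighm, Xbp1 and Zbtb46 were likewise named after their values were seen. The members and lists were chosen with earlier results of these data known, and the olfactory receptor range was added after the values were seen. Deviations of same-numbered WT and Foxo1KO arrays correlated at -0.09, so the numbers were not taken to pair arrays. The number did go with Y-linked signal in both groups, which was present on the arrays of replicate 2 and not on those of replicate 1. Xist was high on all of these arrays (12.03 to 13.43), so those of replicate 2 held both signals. Alternatives covered the filter on dim probe sets, the summary per gene, the variance prior, the scaling, a floor on dim values, each left-out array and a replicate block. Listed genes without a probe set of their own were not analysed here.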

Additional observations from a re-analysis of the deposited data

Results flagged for a closer look

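The knockout difference differed with and without Foxo1AAA at 2 of the 22 member probe sets, by a contrast of the 2 differences in limma. For Arnt2 1434028_at it was -3.66, the 0.67 between the arrays with Foxo1AAA minus the 4.33 between Foxo1KO and WT, and the value contains the measurements that chose Arnt2, so it carries no p. For Per2 1417602_at it was 1.19, from 0.22 and -0.97, at levels within or near the olfactory receptor range, and it contains the Foxo1KO and WT arrays as well. At Per2 the contrast no longer passed without either Foxo1KO array. Both rest on 1 array of each group with Foxo1AAA.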

How the results depend on the processing

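Over the member probe sets, 1337 of the values under an alternative kept their side of the threshold, 31 lost a call, 17 gained one and 3 turned direction. A turn was counted only where the main or the alternative value was called. A change of sign between values that were not called counts as kept, here and for the list genes. Those 3 came from the mean of all probe sets of a gene: Per2 at -0.27 in Foxo1KO against WT and 0.40 in Foxo1KO/Foxo1AAA against Foxo1KO, and Clock at -0.11 in Foxo1AAA against WT. Among the named genes of the lists, 2197 kept, 84 lost and 9 gained a call, and 1, the B cell marker Ighm, turned from -0.67 to 0.84 in Foxo1KO against WT. Leaving out each replicate in turn, the called member probe sets were 3 to 4 in Foxo1KO against WT, 4 to 5 in Foxo1KO/Foxo1AAA against Foxo1KO, 5 to 7 in Foxo1AAA against WT, 5 to 7 in Foxo1KO/Foxo1AAA against WT and 1 to 2 for the difference of knockout differences, which was also 1 without the lowest 50% of probe sets. The called pathway genes were 30 in Foxo1KO against WT (18 to 25 leaving out each replicate), 31 in Foxo1KO/Foxo1AAA against Foxo1KO (20 to 31 leaving out each replicate) and 5 for the difference of knockout differences (2 to 8, and 10 with the mean of all probe sets, 11 with the gene fit without the lowest 25% of genes and 8 with a variance trend). All probe sets called in Foxo1KO against WT were 26.2% without the lowest 50%, 21.8% in the gene fit, and 7.72% and 7.95% without Foxo1KO replicate 1 and 2. In Foxo1KO/Foxo1AAA against Foxo1AAA the share ran from 0.00888% to 0.517%. Without WT replicate 2, the share of all probe sets called also fell in Foxo1AAA against WT and in Foxo1KO/Foxo1AAA against WT. It fell in Foxo1KO/Foxo1AAA against Foxo1KO without Foxo1KO replicate 1, and for the difference of knockout differences without either Foxo1KO array. With the replicate block, 4 member probe sets were called in Foxo1KO against WT in place of 5. The replicate number goes with Y-linked signal, so leaving out an array and the block also change the sex make-up of the groups. With array medians subtracted, Ahr 1450695_at (-0.36), Clock 1439314_at (-0.38) and Per1 (-0.32) lost their calls in Foxo1AAA against WT. Arnt2 1434028_at was 3.97 to 4.68 higher in Foxo1KO leaving out each replicate and 1.48 higher as the mean of its 3 probe sets. The causes were not tested. Dim signal limits Arnt2 in WT and Per2 1417602_at throughout.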
